A study of Mus musculus with 19 samples.

Results

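Male C57BL/6NJ mice that had reached the maximal electroshock seizure threshold (MEST) were compared with sham mice of the same WT genotype. The comparison takes all 5 WT MEST and all 5 WT sham libraries of a series of 19, with 1 library per mouse, as the sample labels assign them. A MEST mouse received 1 shock a day through ear clips, from 20 mA upward in steps of 2 mA, and was killed when both hind limbs went into tonic extension. A sham mouse was handled in the same way without a shock. The tissue, a block cut from 1 hemisphere that holds hippocampus and overlying cortex, was collected in the night at ZT20. In such bulk tissue a fall in a cell type and a fall in its RNA per cell cannot be told apart. WT sham mice were 15.9 to 16.3 weeks old and WT MEST mice 17.4 to 18.0 weeks old. The means differed by 1.64 weeks, and age and treatment cannot be told apart. The number of daily shocks a mouse received and the time from the seizure to the killing are not given in the sources used here. The other 9 libraries, used beside the WT values, came from *Fabp7* knockout (KO) males of the same strain without fatty acid binding protein 7, from 4 KO sham mice of 17.3 to 17.9 weeks and 5 KO MEST mice of 18.9 to 19.4 weeks.

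An electroshock drives neurons to fire together, and neuronal firing is known to induce immediate early genes (IEGs) through calcium entry, the MAPK cascade and the transcription factors CREB and SRF. IEG transcripts such as *Fos*, *Egr1*, *Npas4* and *Arc* rise quickly after firing and decay quickly. A slower set of transcripts follows, among them *Bdnf* and *Nptx2*, whose proteins act at synapses.

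The promoters below are printed because CREB binds the cyclic AMP response element (CRE), whose full form is TGACGTCA and whose core is TGACG. The 250 bases before the start site were read from RefSeq for the build GRCm38.p6. Of 8 IEGs looked up, 7 were in the table and 6 of these had 1 annotated start. The core stood on either strand in 6 of these 6 windows (*Fos*, *Npas4*, *Junb*, *Btg2*, *Nr4a1* and *Cyr61*), and in 17.8% of 32851 windows of the same length over all genes. The full CRE, which holds the core on both strands, stood in 1 of the 6, that of *Btg2*, and in 1.55% of all windows. A CArG box, the letters that SRF is known to bind, stood in 0 of the 6 and in 1.47% of all. *Egr2*, which had 5 annotated starts and is left out of these counts, held a CArG box in every window except the most upstream. Its windows overlap in part, and some also held the core. *Egr1* was not looked up. A match is a description of letters and not a measured binding site. Capitals mark the core, or its reverse complement CGTCA, and in *Btg2* the full CRE. The matches begin 129 and 66 bases before the start of *Fos* (chr12:85473640-85473889, plus strand), 179 and 169 before *Npas4* (chr19:4989972-4990221, minus strand), 166 before *Btg2* (chr1:134079156-134079405, minus strand) and 233, 213, 69 and 40 before *Nr4a1* (chr15:101266596-101266845, plus strand).
Fos: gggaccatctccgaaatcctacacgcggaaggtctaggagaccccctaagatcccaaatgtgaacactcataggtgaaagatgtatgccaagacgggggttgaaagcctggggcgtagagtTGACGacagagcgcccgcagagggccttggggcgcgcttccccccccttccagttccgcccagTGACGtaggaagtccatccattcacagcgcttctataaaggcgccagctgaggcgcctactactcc
Npas4: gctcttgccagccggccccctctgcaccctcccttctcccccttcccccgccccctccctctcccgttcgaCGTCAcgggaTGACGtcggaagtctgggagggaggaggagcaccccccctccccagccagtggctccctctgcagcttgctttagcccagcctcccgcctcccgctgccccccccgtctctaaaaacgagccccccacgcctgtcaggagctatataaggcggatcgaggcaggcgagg
Btg2: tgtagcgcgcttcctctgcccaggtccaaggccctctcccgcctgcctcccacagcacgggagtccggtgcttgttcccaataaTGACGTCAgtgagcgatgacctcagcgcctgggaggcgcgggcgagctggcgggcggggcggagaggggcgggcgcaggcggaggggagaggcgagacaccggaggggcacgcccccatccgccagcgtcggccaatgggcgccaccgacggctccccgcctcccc
Nr4a1: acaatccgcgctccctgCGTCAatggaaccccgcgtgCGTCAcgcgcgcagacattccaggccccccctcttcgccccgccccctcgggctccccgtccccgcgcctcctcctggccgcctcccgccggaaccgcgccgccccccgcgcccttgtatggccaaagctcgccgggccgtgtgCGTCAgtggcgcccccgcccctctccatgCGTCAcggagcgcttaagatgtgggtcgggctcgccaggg

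Reads in genes ranged from 27.6 to 32.3 M in WT sham and from 30.3 to 38.5 M in WT MEST libraries. The WT sham libraries stood apart from all others. Principal component 1 of all 19 libraries (16.6% of the variance) ran from 20.4 to 30.8 in WT sham and from -14.2 to -1.64 in the other 14 libraries, KO sham included. Every WT MEST value below is set against those WT sham libraries, so the KO sham level is given beside the results in which it matters. Levels are given as CPM, the reads of a gene scaled to the total of its library, and a difference is a log2 fold change on the scale of log2(CPM + 0.1), which understates the change of genes near 0 CPM. Of 16080 genes tested with limma at a Benjamini-Hochberg adjusted p under 0.05, 1985 were higher and 1972 lower in WT MEST, which is 24.6% of the genes (12.3% in each direction). Most differences were small. The median size was 0.298 on the log2 scale among genes that passed, and 89.7% of them differed by less than 1.5-fold. Over 2-fold, 35 genes were higher (0.218%) and 57 lower (0.354%), and 57 of these 92 had a mean under 2 CPM. In 2687 genes (16.7%) the groups did not overlap, with all MEST libraries above all sham libraries in 1406 (8.74%) and below them in 1281 (7.97%). Short genes were more often higher than long genes. Of the 3197 genes in the shortest of 5 length classes 539 were higher and 270 lower, and of the 3191 in the longest 350 were higher and 463 lower.

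Rapid IEGs were lower in WT MEST. Of 47 tested members of 3 IEG lists, 0 were higher and 28 lower (59.6%), beside 12.3% of all genes in each direction. The median log2 fold change was -0.39 against -0.004 over all genes tested. The 12 largest decreases, taken among genes of at least 2 CPM whose groups do not overlap, held 9 IEGs, so the lack of overlap in these 9 was fixed by their choice. *Npas4*, a transcription factor that neuronal calcium induces, stood at 37.2, 65.4, 62.3, 65.8 and 40.4 CPM in sham replicates 1 to 5 and at 8.38, 7.48, 6.90, 5.07 and 5.81 CPM in MEST replicates 1 to 5. The lowest sham library held more than 4 times the *Npas4* of the highest MEST library, and the log2 fold change was -2.97 (SE 0.20, limma adjusted p 4.35e-06). *Egr2*, a zinc finger transcription factor, was at 13.7, 28.6, 17.5, 35.9 and 9.35 CPM in sham and at 1.24, 3.24, 3.55, 1.26 and 2.22 CPM in MEST libraries. It fell the most of all 12, by 3.10 on the log2 scale (SE 0.46, limma adjusted p 0.00141).

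The AP-1 family, whose Fos and Jun proteins pair to bind DNA, fell in 5 of 10 tested members and rose in 0. In sham replicates 1 to 5 *Fos* measured 54.3, 92.8, 80.2, 115 and 40.6 CPM, and in MEST replicates 12.5, 21.5, 20.1, 10.3 and 17.1 CPM. The groups did not overlap, with a log2 fold change of -2.18 (SE 0.33, limma adjusted p 0.0017). *Junb* ranged from 65.4 to 142 CPM in sham and from 22.7 to 33.0 CPM in MEST libraries and fell by 1.68 (SE 0.23, limma adjusted p 0.000842). The other AP-1 members that passed changed less than *Fos* and *Junb*. *Fosb* measured 14.9 to 26.7 CPM in sham and, in MEST replicates 1 to 5, 6.10, 10.3, 10.6, 18.4 and 6.17 CPM, so that MEST replicate 4 alone lay within the sham range. Its log2 fold change was -1.09 (SE 0.32, limma adjusted p 0.0383), and it no longer passed without sham replicate 2, 3, 4 or 5 or without MEST replicate 1, 2, 3 or 5 (-1.15 to -0.93). *Jun* (-0.31, adjusted p 0.0288) passed with overlapping groups and failed without sham replicate 2 or 5 or MEST replicate 2, 4 or 5 (-0.31 to -0.25). *Fosl2* (-0.31, adjusted p 0.0409) passed with overlapping groups and failed without sham replicate 2 or 4 or MEST replicate 1, 2, 4 or 5 (-0.32 to -0.21). The count of 5 fell to 2 without sham replicate 2 or MEST replicate 2 or 5, and to 3 without sham replicate 4 or 5 or MEST replicate 1 or 4. *Jund*, the Jun member with the steadiest expression in most tissues, did not pass (0.21, SE 0.16, adjusted p 0.391).

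Among Egr, Nr4a and Npas4 factors, 11 of 17 members fell (64.7%) and 0 rose, beside 12.3% of all genes in each direction. *Egr1* was at 422, 494, 533, 568 and 441 CPM in sham and at 141, 246, 206, 99.7 and 160 CPM in MEST replicates 1 to 5. The highest MEST library stayed well under the lowest sham library, with a log2 fold change of -1.59 (SE 0.23, limma adjusted p 0.0015). *Egr3* and *Egr4*, from the same zinc finger family, did not pass (-0.39, adjusted p 0.194, and -0.92, adjusted p 0.0864). *Egr3* passed without MEST replicate 4, in which it reached 244 CPM (-0.55), and *Egr4* without MEST replicate 2 (-1.13). The orphan nuclear receptors all fell, with *Nr4a1* at -1.44 (SE 0.31, limma adjusted p 0.011), *Nr4a2* at -0.58 (SE 0.10, adjusted p 0.000518) and *Nr4a3* at -0.39 (SE 0.09, adjusted p 0.00357). *Klf6*, a zinc finger factor of the same list, ranged from 87.7 to 114 CPM in sham and from 68.6 to 78.8 CPM in MEST libraries (-0.42, SE 0.07, limma adjusted p 5.87e-05).

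Feedback and effector IEGs hold proteins that act at synapses, damp MAPK signaling or slow growth. They fell in 12 of 20 members (60.0%) and rose in 0, beside 12.3% of all genes in each direction. *Arc*, which shapes the internalization of AMPA receptors, stood at 366, 505, 387, 669 and 237 CPM in sham and at 143, 173, 139, 104 and 128 CPM in MEST replicates 1 to 5 (-1.59, SE 0.27, limma adjusted p 0.00328). *Btg2*, an antiproliferative factor, was at 35.6, 68.3, 61.1, 85.0 and 31.9 CPM in sham libraries against 14.4 to 17.04 CPM in MEST libraries (-1.72, SE 0.27, limma adjusted p 0.00215). The MEST libraries were thus much closer to each other than the sham libraries were. *Cyr61*, a matricellular protein, ranged from 8.50 to 35.0 CPM in sham and from 2.95 to 5.35 CPM in MEST libraries (-2.15, SE 0.42, limma adjusted p 0.00619), and its relative *Ctgf* fell by 0.46 (SE 0.08, adjusted p 0.000202). *Dusp6*, the phosphatase that turns off ERK, fell by 0.58 (SE 0.09, limma adjusted p 0.000276). *Trib1*, a pseudokinase, fell by 0.82 (SE 0.13, limma adjusted p 0.00041). *Plk3*, a stress kinase, fell by 0.60 (SE 0.10, limma adjusted p 0.000121), and *Ier2*, whose groups overlapped, by 1.01 (SE 0.25, limma adjusted p 0.0123).

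The order of libraries was shared among the 9 IEGs of the largest decreases. Sham replicate 4 was the highest sham library in 9 of 9 genes, and sham replicate 5 was the lowest in 6 and replicate 1 in the other 3. Within MEST libraries, replicate 4 was the lowest in 6 of 9. All 9 genes passed when any 1 of the 10 libraries was left out, sham replicate 4 included. KO libraries spanned the WT groups. KO sham replicates 3 and 4 lay above every WT MEST library in 9 of 9 genes, and replicates 2 and 5 in 8. KO sham replicate 5 also lay below every WT sham library in 9 of 9, replicate 2 in 7, and replicates 3 and 4 in 2 each. For *Egr1* all KO sham libraries (237 to 413 CPM) were below every WT sham library (422 to 568 CPM). KO MEST replicates 1, 2 and 4 lay below every WT sham library in 9 of 9 genes, while KO MEST replicates 3 and 5 lay above every WT MEST library in 9 of 9.

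**Figure D1:**
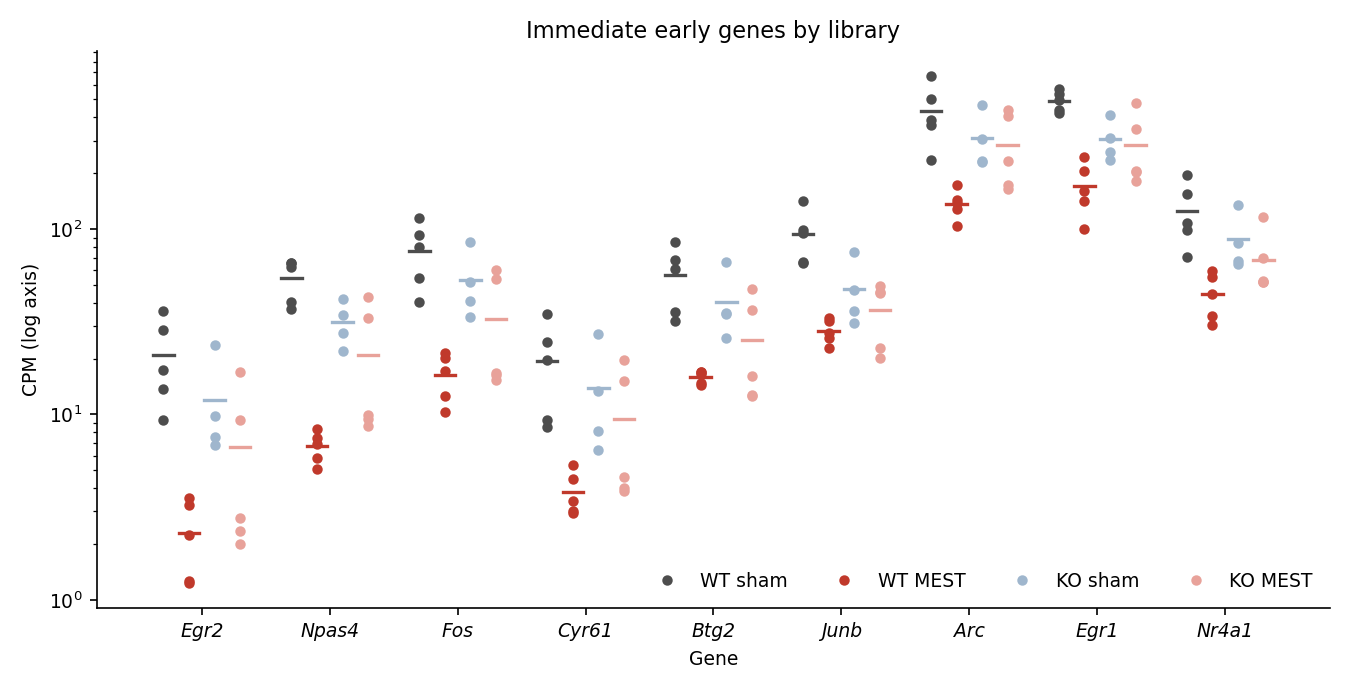
CPM of 9 immediate early genes on a log axis, with 1 point per library and a bar at the mean of the group, for 5 WT sham, 5 WT MEST, 4 KO sham and 5 KO MEST libraries. The genes were chosen among those whose WT groups do not overlap, as in *Npas4* (5.07 to 8.38 against 37.2 to 65.8 CPM), and the KO MEST points span both WT groups.

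Slower activity genes moved in both directions. Of 20 late activity effectors 4 rose and 2 fell (20.0% and 10.0%, against 12.3% of all genes in each direction), with a median log2 fold change of 0.02. *Nptx2*, a secreted pentraxin that gathers AMPA receptors, was at 30.2, 37.1, 29.8, 32.02 and 38.8 CPM in sham and at 49.0, 52.7, 42.1, 113 and 43.4 CPM in MEST replicates 1 to 5. All MEST libraries were above all sham libraries, but the log2 fold change of 0.73 (SE 0.27) did not pass (limma adjusted p 0.0829). Without MEST replicate 4, the library at 113 CPM, it was 0.48 and passed (limma adjusted p 0.000389). *Bdnf*, the neurotrophin, ranged from 29.3 to 38.7 CPM in sham and from 33.2 to 48.3 CPM in MEST libraries (0.24, SE 0.09, limma adjusted p 0.0651). It passed without sham replicate 4 (0.29) or without MEST replicate 3 (0.30). *Homer1*, a scaffold of the postsynaptic density, is counted in the feedback and effector IEG list and not among these late effectors. Counted over the whole gene, with splice forms not told apart, it showed no detectable difference (-0.01, SE 0.06, limma adjusted p 0.962). *Kcnj4*, an inward rectifier potassium channel, was at 51.0 to 59.9 CPM in sham and at 60.8 to 83.5 CPM in MEST libraries and rose by 0.42 (SE 0.07, limma adjusted p 0.000166). *Lingo3*, a leucine-rich repeat membrane protein, rose by 0.33 (SE 0.09, limma adjusted p 0.00825) with overlapping groups. *Rgs4*, which speeds the shutdown of G proteins, fell by 0.23 (SE 0.05, limma adjusted p 0.00309).

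Of 20 neuropeptides 1 rose and 1 fell (5.0% each, below the 12.3% of all genes in each direction). *Cck*, the peptide of a class of cortical interneurons and of many pyramidal cells, was at 87.1, 89.8, 84.9, 96.3 and 107 CPM in sham and at 168, 186, 182, 157 and 155 CPM in MEST replicates 1 to 5. It rose by 0.87 (SE 0.07, limma adjusted p 8.31e-09), and KO sham libraries, at 155 to 178 CPM, lay with the WT MEST libraries. *Crh*, corticotropin releasing hormone, was at 4.36 to 5.43 CPM in sham and at 2.51 to 3.30 CPM in MEST libraries and fell by 0.73 (SE 0.14, limma adjusted p 0.000478).

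Receptor and channel subunits changed in both directions, at shares near or below those of all genes (12.3% each way). Of 22 glutamate receptor subunits 3 rose and 3 fell, of 14 GABA receptor subunits 2 rose and 0 fell, and of 34 voltage-gated channels 2 rose and 2 fell. *Grin2a*, an NMDA receptor subunit, was at 16.9 to 21.1 CPM in sham and at 22.7 to 30.9 CPM in MEST libraries (0.58, SE 0.08, limma adjusted p 2.34e-05), and lost the call in a fit of all 19 libraries (adjusted p 0.195), where KO sham libraries alone ran from 8.25 to 30.5 CPM. *Grin1*, the obligate NMDA subunit, went the other way, from 292 to 348 CPM in sham to 229 to 276 CPM in MEST libraries (-0.27, SE 0.06, limma adjusted p 0.00217). Kainate receptor subunits split as well, since *Grik5* rose by 0.25 (SE 0.05, limma adjusted p 0.00179) and *Grik1* fell by 0.34 (SE 0.08, limma adjusted p 0.00411). The GABA-A subunit *Gabrg1* rose by 0.28 (SE 0.07, limma adjusted p 0.00544). Among the channels *Kcna4*, a subunit of an A-type potassium channel, fell by 0.27 (SE 0.06, limma adjusted p 0.00278).

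Heat shock proteins and chaperones fell in 10 of 24 members (41.7%) and rose in 1 (4.17%), beside 12.3% of all genes in each direction. Their median was -0.09. *Hspa8*, the constitutive HSP70, fell by 0.26 (SE 0.04, limma adjusted p 0.000108) and *Hsp90aa1* by 0.31 (SE 0.05, limma adjusted p 0.000144), while the small heat shock protein *Hspb1* rose by 0.65 (SE 0.16, limma adjusted p 0.00578). These 3 genes share 31.7%, 47.3% and 42.9% of their 100-base windows with transcripts of other genes, so their counts are uncertain. The count of 10 was 6 without sham replicate 5 or MEST replicate 4, and 6 with the trend on exonic length removed. *Mt3*, the metallothionein of brain, was at 89.1 to 103 CPM in sham and at 138 to 172 CPM in MEST libraries (0.69, SE 0.06, limma adjusted p 1.08e-07), with KO sham libraries at 150 to 189 CPM. *Hilpda*, a lipid droplet protein that hypoxia induces, rose by 0.68 (SE 0.14, limma adjusted p 0.000928). It was the only 1 of 14 hypoxia genes to pass (7.14%, below the 12.3% of all genes). Glucocorticoid responsive genes rose in 2 of 21 tested members (9.52%) and fell in 5 (23.8%), of which 2 still fell with the length trend removed. *Cdkn1a*, the cell cycle inhibitor p21, was 1 of the 2 that rose, by 0.48 (SE 0.13, limma adjusted p 0.00692) with overlapping groups.

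The circadian clock, read at the same hour in both groups, rose in 3 of 20 genes and fell in 3 (15.0% each, near the 12.3% of all genes). *Tef*, an output factor of the clock, rose from 384 to 410 CPM in sham to 443 to 493 CPM in MEST libraries (0.25, SE 0.05, limma adjusted p 0.00032), and the repressor *Cry1* rose by 0.33 (SE 0.08, limma adjusted p 0.00318). *Arntl*, which encodes the activator BMAL1, fell by 0.33 (SE 0.07, limma adjusted p 0.000627). The repressor *Bhlhe40* fell by 0.42 (SE 0.07, limma adjusted p 0.000327), and *Per1*, which is also an early target of CREB, fell by 0.45 (SE 0.12, limma adjusted p 0.0149) with overlapping groups.

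In several larger gene groups the KO sham libraries lay nearer to WT MEST than to WT sham. Nuclear genes of the respiratory chain and ATP synthase rose in 42 of 74 tested members (56.8%) and fell in 8 (10.8%), with a median of 0.21. These shares stand beside 12.3% of all genes in each direction. *Atp5e*, a subunit of ATP synthase, was at 26.1, 27.5, 26.0, 25.7 and 22.5 CPM in sham and at 59.7, 62.2, 64.7, 58.5 and 54.5 CPM in MEST replicates 1 to 5 (1.23, SE 0.07, limma adjusted p 2.78e-11). *Cox5a*, of complex IV, rose by 1.00 (SE 0.06, limma adjusted p 1.11e-10) and *Ndufa2*, of complex I, by 0.95 (SE 0.08, limma adjusted p 1.75e-08). *Uqcrfs1*, the iron-sulfur protein of complex III, rose by 0.56 (SE 0.05, limma adjusted p 5.47e-08). The KO sham libraries held 43.3 to 67.8 CPM of *Atp5e*, within or near the WT MEST range and above every WT sham library. KO sham over WT sham, a comparison that shares the WT sham libraries with this one, had 42 members of the 74 higher and 4 lower, beside 18.2% of all genes (9.53% higher, 8.68% lower). KO MEST over KO sham, which shares no library with the WT comparison, had 0 higher and 14 lower, beside 1.88% of all genes higher and 1.27% lower. Not all subunits rose, since *Ndufa1* fell by 0.78 (SE 0.07, limma adjusted p 2.7e-08) and *Ndufs6* by 0.58 (SE 0.06, limma adjusted p 2.64e-07), with KO sham again below WT sham in both (-0.68 and -0.44).

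Cytosolic ribosomal proteins rose in 41 of 78 members (52.6%) and fell in 9 (11.5%), beside 12.3% of all genes in each direction (median 0.18). Mitochondrial ribosomal proteins rose in 21 of 77 (27.3%) and fell in 13 (16.9%, median 0.10). The 9 became 5 without sham replicate 4 or MEST replicate 4. *Rps14* of the small subunit was at 65.7 to 76.0 CPM in sham and at 111 to 145 CPM in MEST libraries (0.84, SE 0.07, limma adjusted p 2.21e-08), with KO sham at 124 to 148 CPM. *Rps19* rose by 0.64 (SE 0.06, limma adjusted p 8.59e-08), whereas *Rps29* fell by 0.39 (SE 0.06, limma adjusted p 1.75e-05). In the mitochondrial ribosome *Mrps24* rose by 0.74 (SE 0.09, limma adjusted p 3.61e-06) and *Mrps5* fell by 0.60 (SE 0.06, limma adjusted p 3.3e-07). Glycolysis split evenly, with 5 of 16 enzymes higher (31.2%) and 6 lower (37.5%). *Aldoa* rose by 0.23 (SE 0.04, limma adjusted p 0.000463), and *Hk1*, which starts glucose breakdown in brain, fell by 0.27 (SE 0.05, limma adjusted p 0.000229). *Gapdh*, at 191 to 232 CPM in sham and at 104 to 136 CPM in MEST libraries, fell by 0.86 (SE 0.07, limma adjusted p 5.72e-08), with 17.9% of its windows shared with other transcripts and KO sham libraries at 125 to 134 CPM.

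Genes of RNA processing were lower. SR proteins and splicing regulators together with hnRNP, FET and paraspeckle proteins fell in 34 of 55 members (61.8%) and rose in 2 (3.64%), with a median of -0.34. Over all genes 12.3% passed in each direction. *Srsf5*, an SR splicing factor, was at 284, 315, 303, 295 and 286 CPM in sham and at 120, 126, 102, 134 and 156 CPM in MEST replicates 1 to 5 (-1.23, SE 0.08, limma adjusted p 2.69e-08). *Hnrnpa2b1*, an RNA-binding protein of splicing and transport, fell by 0.68 (SE 0.06, limma adjusted p 2.69e-08) and *Srrm1*, a splicing coactivator, by 0.67 (SE 0.06, limma adjusted p 4.2e-08). *Srsf2* was 1 of the 2 that rose (0.30, SE 0.05, limma adjusted p 0.000228). Of 18 nuclear long noncoding RNAs 9 fell and 1 rose, and *Neat1*, the scaffold of paraspeckles, was at 191 to 215 CPM in sham and at 83.5 to 148 CPM in MEST libraries (-0.97, SE 0.14, limma adjusted p 0.000811). KO sham libraries stood at 114 to 165 CPM of *Srsf5* and 90.0 to 128 CPM of *Neat1*, below every WT sham library in both. Of the 55 genes, KO sham over WT sham had 1 higher and 31 lower, beside 9.53% and 8.68% of all genes. KO MEST over KO sham had 3 higher and 0 lower, beside 1.88% and 1.27% of all genes.

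**Figure D2:**
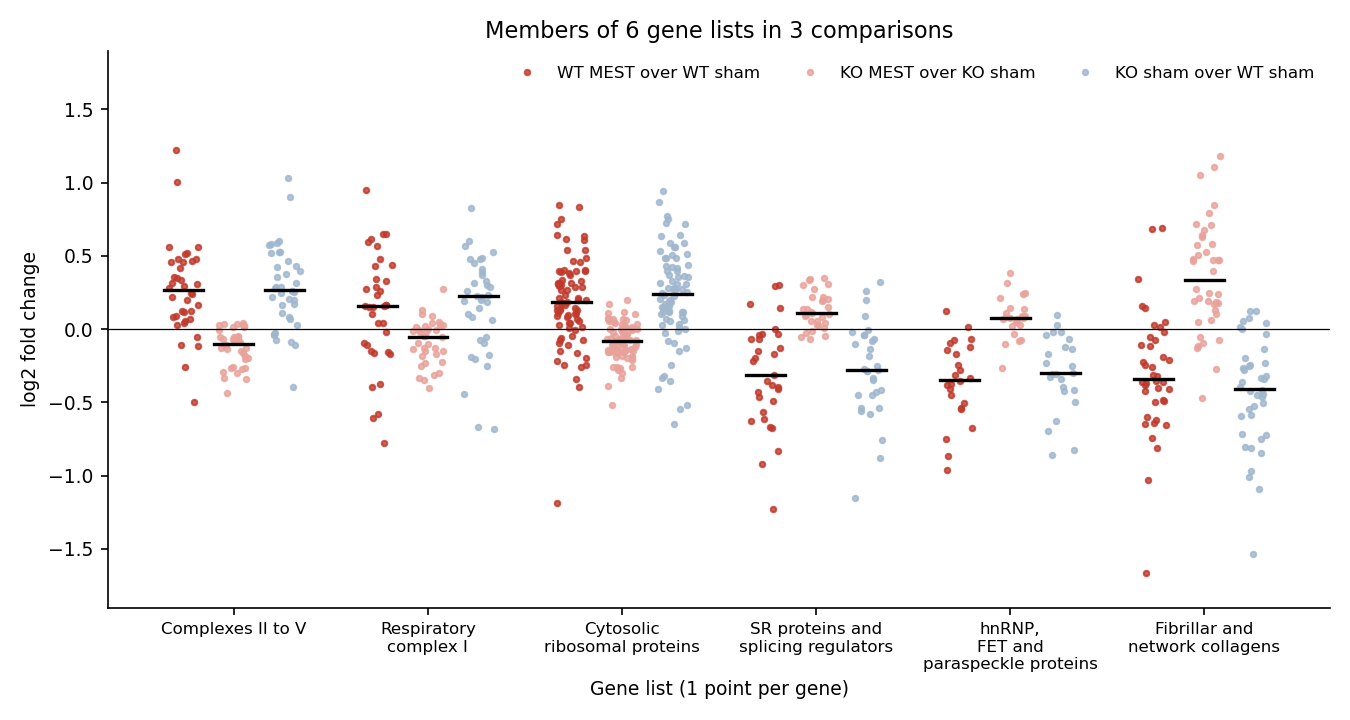
Log2 fold changes of single genes (1 point each, with a bar at the median) of 6 lists in WT MEST over WT sham, KO MEST over KO sham and KO sham over WT sham, of which the first and the third share the WT sham libraries. In complexes II to V the medians are 0.27, -0.10 and 0.27, and in hnRNP, FET and paraspeckle proteins -0.35, 0.07 and -0.30. The lowest ribosomal point is *Rpl30*.

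Of the 12 largest increases in genes of at least 2 CPM, *Glrx3*, a glutaredoxin of iron handling, was at 1.65 to 3.27 CPM in sham and at 6.26 to 7.59 CPM in MEST libraries (1.59, SE 0.17, limma adjusted p 5.01e-07). *Rps27l*, a ribosomal protein paralog, rose by 1.15 (SE 0.14, limma adjusted p 3.05e-06), *Slirp*, which binds mitochondrial mRNA, by 1.11 (SE 0.11, limma adjusted p 2.84e-07) and *Gng13*, a G protein gamma subunit, by 1.08 (SE 0.12, limma adjusted p 8.26e-07). Among the largest decreases outside the IEGs, *Col24a1*, a fibrillar collagen, ranged from 4.52 to 9.65 CPM in sham and from 0.994 to 4.06 CPM in MEST libraries (-1.66, SE 0.32, limma adjusted p 0.00215), and *Scamp3*, a carrier protein of membrane recycling, fell by 1.25 (SE 0.14, limma adjusted p 1.25e-06). KO sham libraries lay above the WT sham range of *Glrx3* (4.31 to 8.98 CPM) and below that of *Scamp3* (1.03 to 3.29 CPM).

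**Figure D3:**
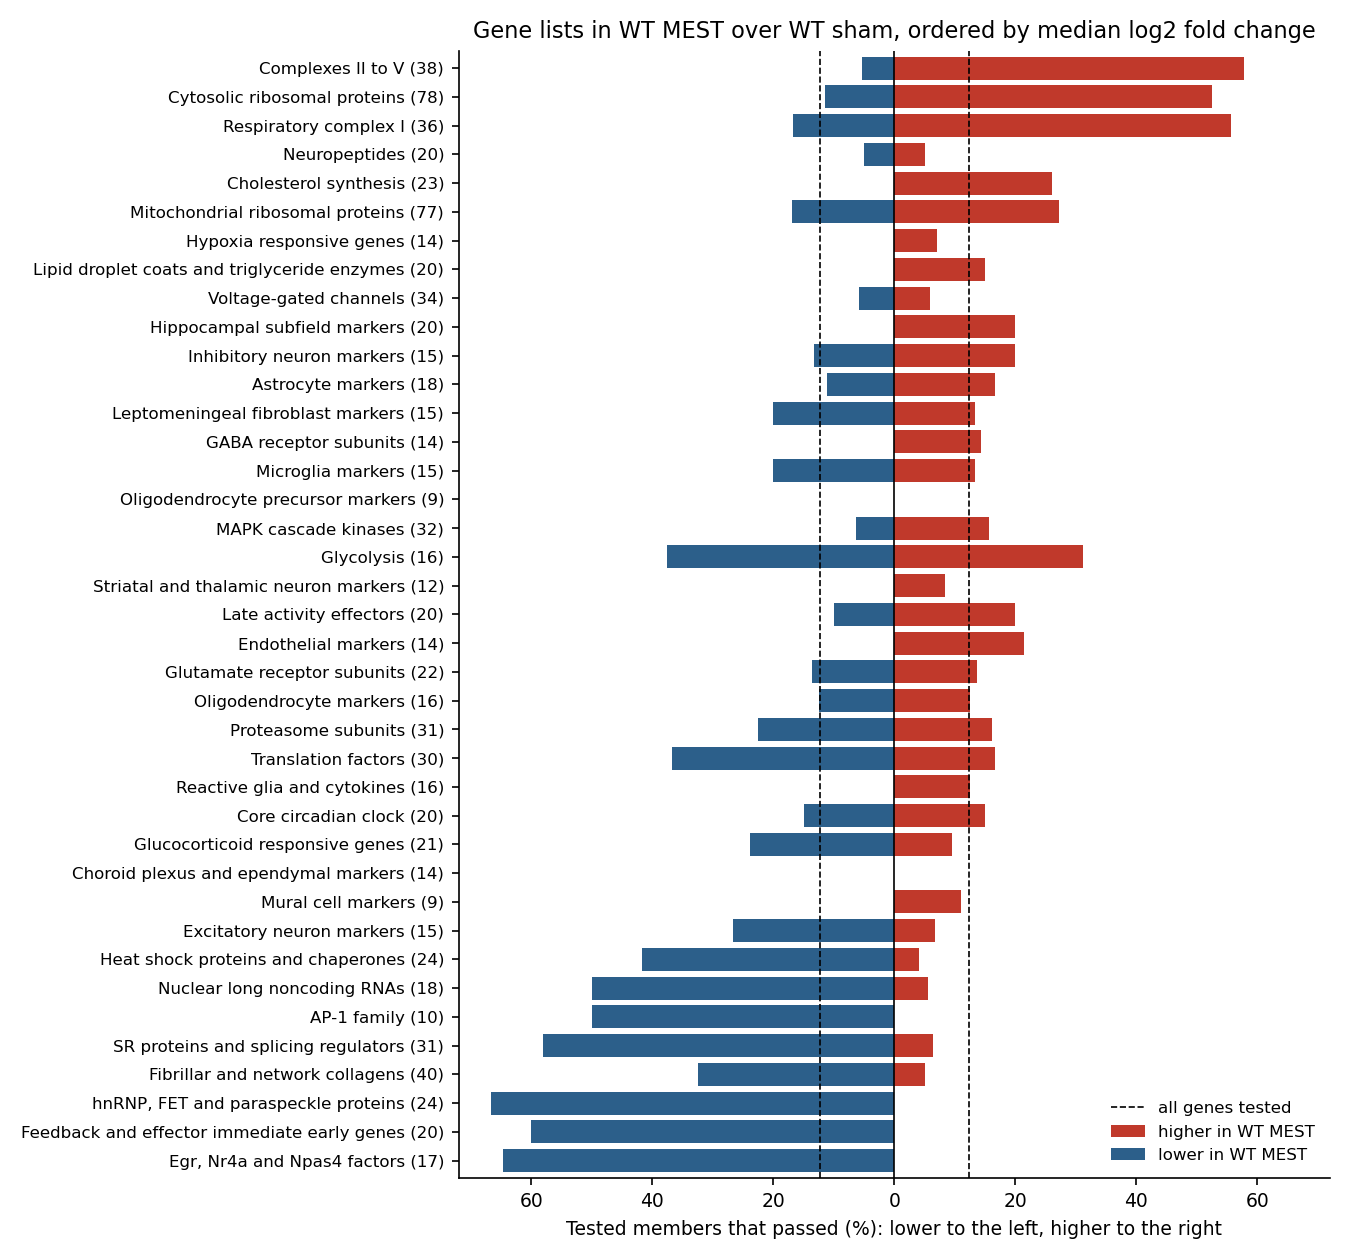
Percent of tested members that passed in WT MEST over WT sham, for each gene list with at least 9 tested members. Lower is to the left and higher to the right, with the number of tested members in parentheses. Dashed lines give the 12.3% of all genes tested. Fatty acid binding proteins, metallothioneins and blood cell markers had fewer tested members and are not drawn. Lists run by median log2 fold change from complexes II to V (0.27) at the top to Egr, Nr4a and Npas4 factors (-0.42) at the bottom.

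Collagens fell in 13 of 40 members (32.5%) and rose in 2 (5.0%), beside 12.3% of all genes in each direction. Their median was -0.34. The 13 became 8 without MEST replicate 3. KO sham over WT sham, with the same WT sham libraries, had 15 of the 40 lower and 0 higher (median -0.41). Over all genes 8.68% were lower and 9.53% higher in that comparison. KO MEST over KO sham had 9 higher and 0 lower (median 0.33), beside 1.88% and 1.27% of all genes. *Col11a2* was at 17.9 to 24.9 CPM in sham and at 11.5 to 17.7 CPM in MEST libraries (-0.62, SE 0.11, limma adjusted p 0.000284), and *Col27a1* fell by 0.65 (SE 0.15, limma adjusted p 0.00294), with MEST replicate 5 (8.92 CPM) inside the sham range. The 2 that rose form type I collagen. *Col1a1* was at 7.49, 5.65, 5.50, 7.82 and 5.30 CPM in sham and at 11.2, 10.3, 7.86, 10.96 and 10.6 CPM in MEST replicates 1 to 5 (0.68, SE 0.13, limma adjusted p 0.000452), and *Col1a2* rose by 0.34 (SE 0.09, limma adjusted p 0.00542). The markers of leptomeningeal fibroblasts, which make type I collagen, rose in 2 of 15 members (13.3%), these same collagens. They fell in 3 (20.0%), among them the GABA transporter *Slc6a13* (-0.47, SE 0.11, limma adjusted p 0.00217). The summed level of these markers overlapped between the groups (729 to 1070 CPM in sham, 661 to 886 CPM in MEST libraries). Their part in the collagen values was not tested.

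Of 16 tested genes of the reactive glia and cytokine list 2 rose (12.5%, near the 12.3% of all genes) and 0 fell. *Gfap*, the intermediate filament of astrocytes, was at 166, 148, 162, 187 and 141 CPM in sham and at 254, 209, 194, 260 and 253 CPM in MEST replicates 1 to 5, without overlap (0.54, SE 0.09, limma adjusted p 0.000435). *Serpina3n*, a protease inhibitor of reactive astrocytes, was at 22.4 to 23.0 CPM in sham and at 25.9 to 33.6 CPM in MEST libraries (0.42, SE 0.07, limma adjusted p 0.000206). Both lost the call in the 4-group fit, in which all 19 libraries set the spread (adjusted p 0.106 and 0.0688). KO sham libraries lay within the WT sham range of *Gfap* (152 to 172 CPM). For *Serpina3n* they ran from 21.0 to 30.8 CPM, across both the WT sham and the WT MEST range. The astrocyte markers as a whole rose in 3 of 18 members (16.7%) and fell in 2 (11.1%), near the 12.3% of all genes in each direction. Their summed level overlapped (6960 to 7980 CPM in sham, 7270 to 7890 CPM in MEST libraries).

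The WT difference of MEST over sham was then set beside that in KO mice, which shares no library with it. They are called the WT effect and the KO effect below. In both genotypes the MEST mice were the older, so neither effect separates shock from age. In KO MEST over KO sham 522 of 16596 genes passed (3.15%), 312 higher (1.88%) and 210 lower (1.27%). Both comparisons passed in 251 genes, which is 6.34% of those that passed in WT and 48.1% of those that passed in KO mice. Only 55 of the 251 had the same direction, 39 higher and 16 lower in both, while 196 had opposite directions, 100 of them higher in WT and lower in KO mice and 96 the reverse. Over all WT genes that passed, the KO log2 fold change had the same sign in 33.4%, against 43.6% of all genes tested. *Atp5e* and *Cox5a* were of the opposite kind (-0.44, limma adjusted p 0.0183, and -0.33, adjusted p 0.0499, in KO mice), as was *Col27a1* (1.18, adjusted p 0.000569).

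**Figure D4:**
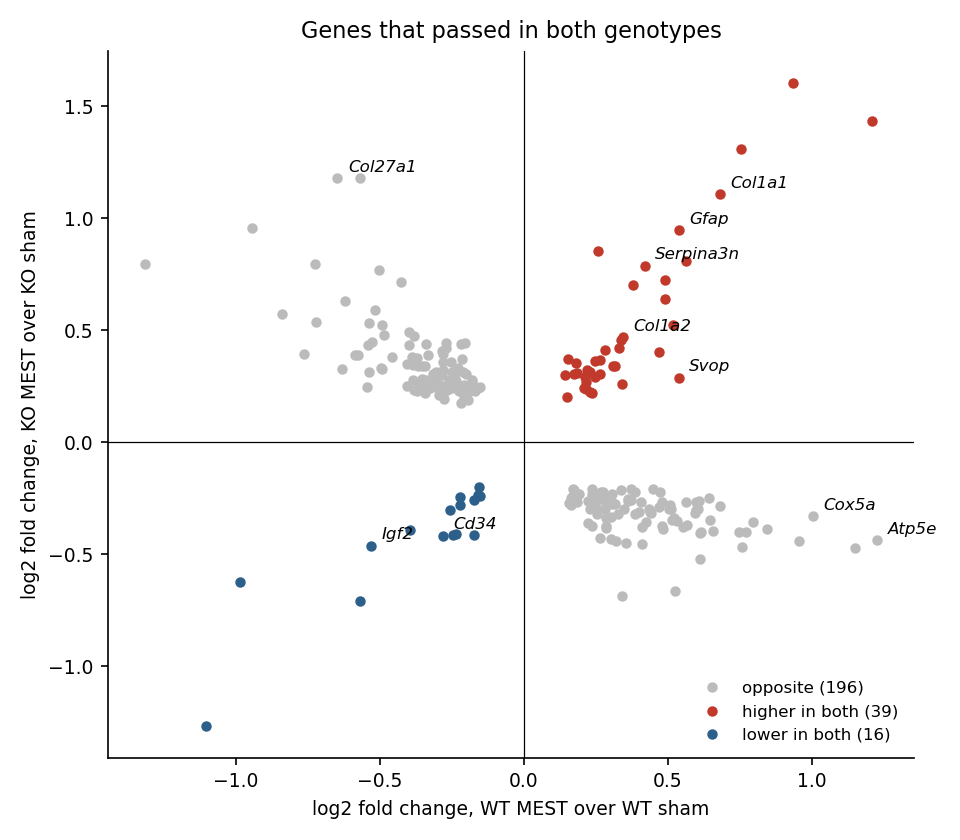
Log2 fold change in WT mice (horizontal) and KO mice (vertical) of the 251 genes that passed in both comparisons, which share no library. Opposite directions hold 196 genes (grey), 39 were higher in both (red) and 16 lower in both (blue).

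Astrocyte, collagen and synaptic genes were among the 55 with the same direction. *Gfap* rose by 0.95 in KO mice (limma adjusted p 0.0478), from 152 to 172 CPM to 212 to 670 CPM, *Serpina3n* by 0.79 (adjusted p 0.0186), *Col1a1* by 1.11 (adjusted p 0.000173) and *Col1a2* by 0.47 (adjusted p 0.0123). *Grik5* (0.29, adjusted p 0.039) and *Aldoa* (0.31, adjusted p 0.00239) also rose in both. *Wfs1*, a protein of the endoplasmic reticulum and a marker of CA1 pyramidal cells, rose by 0.26 in WT (SE 0.07, limma adjusted p 0.00614) and by 0.85 in KO mice (adjusted p 4.1e-05). *Igf2*, a growth factor of meninges and choroid plexus, was at 102 to 130 CPM in WT sham and at 68.9 to 92.9 CPM in WT MEST libraries (-0.53, SE 0.09, limma adjusted p 0.000321) and fell by 0.46 in KO mice (adjusted p 0.0116), with 75.6% of its windows shared with other transcripts.

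Further genes of this kind were chosen after their values had been seen. *Svop*, a synaptic vesicle protein, was at 125, 129, 125, 116 and 126 CPM in WT sham and at 186, 184, 185, 192 and 156 CPM in WT MEST replicates 1 to 5 (0.54, SE 0.06, limma adjusted p 4.38e-07) and rose by 0.29 in KO mice (adjusted p 0.0163). For this gene KO sham libraries, at 160 to 189 CPM, lay with WT MEST. *Slc7a4*, a transporter-like membrane protein, rose by 0.52 in WT (SE 0.08, limma adjusted p 0.000145) and by 0.52 in KO mice (adjusted p 0.00654). *Syn2*, a synapsin that tethers synaptic vesicles, rose by 0.32 (SE 0.06, limma adjusted p 0.000349) and 0.34 (adjusted p 0.00468). *Serinc2* rose by 0.56 (SE 0.14, limma adjusted p 0.0047) and 0.81 (adjusted p 0.00405). *Cd34*, a sialomucin of endothelium, was at 84.3 to 95.8 CPM in WT sham and at 67.8 to 83.9 CPM in WT MEST libraries (-0.28, SE 0.06, limma adjusted p 0.0015) and fell by 0.42 in KO mice (adjusted p 0.0076).

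**Figure D5:**
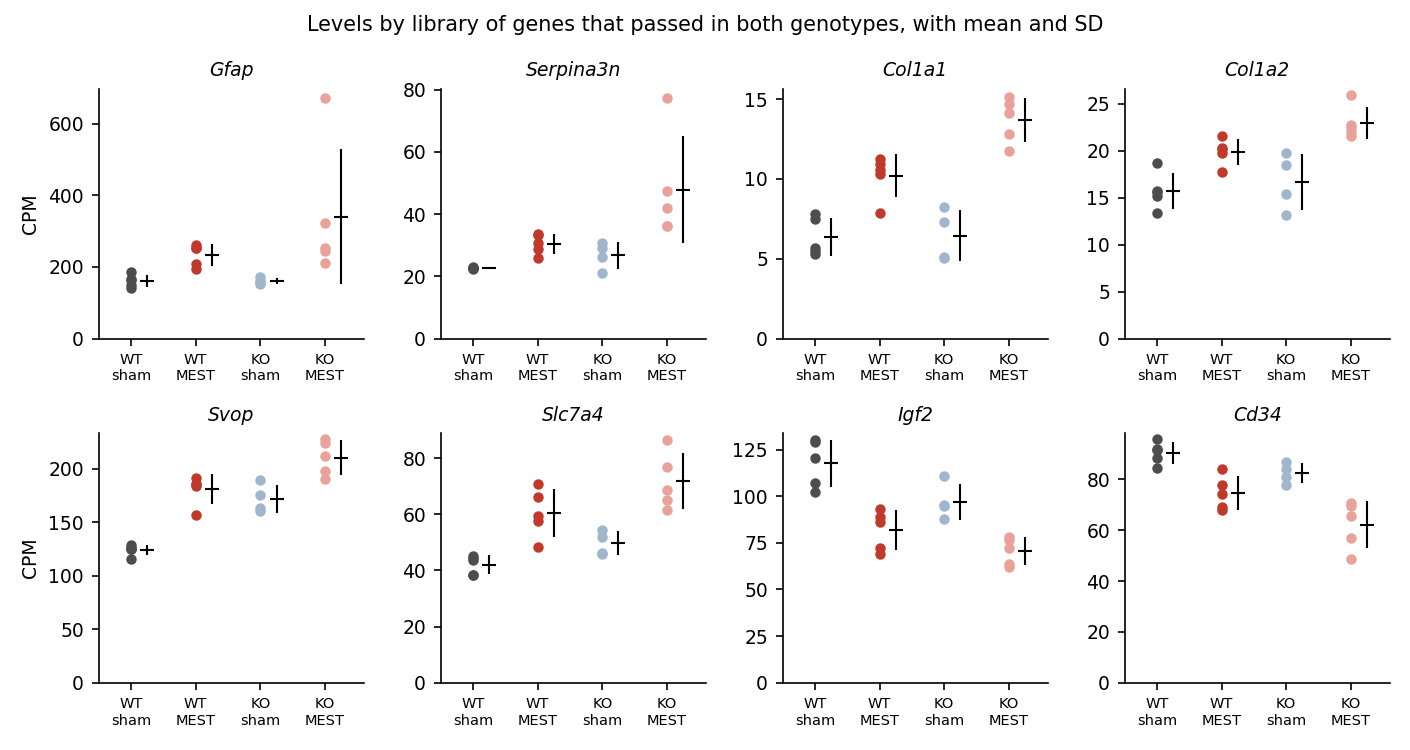
CPM by library (points) with mean and SD of the group (cross and bar) of 8 genes that passed in the same direction in both genotypes, on axes from 0. *Gfap* lies at 141 to 187 CPM in WT sham and at 152 to 172 CPM in KO sham libraries, and 1 KO MEST library reaches 670 CPM of *Gfap*.

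The IEGs that fell in WT mice did not pass in KO mice, whose MEST libraries differed among themselves. *Fos*, for example, was at 33.4 to 85.6 CPM in KO sham libraries. In KO MEST replicates 1, 2 and 4 it was lower, at 15.4, 16.7 and 16.4 CPM, and in replicates 3 and 5 at 60.4 and 53.7 CPM. Of the 47 members of the 3 lists 1 was higher and 0 lower in KO MEST over KO sham (median -0.11), beside 1.88% and 1.27% of all genes. The 1 was *Dusp5*, a phosphatase of ERK named here after its value was seen (0.51, limma adjusted p 0.0495). Tested directly, the KO effect exceeded the WT effect in 10 and was below it in 0, beside 18.6% of all genes that passed the test of the difference (9.65% with a higher and 8.95% with a lower effect in KO mice). *Npas4* had a difference of 2.07 (limma adjusted p 0.0239), with 21.9 to 42.1 CPM in KO sham and 8.70 to 42.9 CPM in KO MEST libraries, and *Egr1* one of 1.40 (adjusted p 0.0248). *Fos* (1.29, adjusted p 0.185) and *Egr2* (1.93, adjusted p 0.145) did not pass this test. KO sham over WT sham had 5 of the 47 lower, beside 8.68% of all genes, and 0 higher, with a median of -0.30 against -0.39 in WT MEST over WT sham. For *Bdnf* the KO effect passed (0.48, limma adjusted p 0.0203) and the difference from the WT effect did not (0.24, adjusted p 0.302).

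Of 23 enzymes of cholesterol synthesis 6 rose (26.1%, against 12.3% of all genes) and 0 fell, with a median of 0.13. *Sqle*, squalene epoxidase, was at 71.1 to 75.9 CPM in sham and at 81.4 to 99.3 CPM in MEST libraries (0.30, SE 0.06, limma adjusted p 0.000351). Of 10 fatty acid binding proteins 3 were tested and 2 fell. *Fabp3*, the neuronal form in adult brain, was at 106, 103, 130, 131 and 114 CPM in sham and at 66.1, 58.9, 64.8, 63.9 and 62.6 CPM in MEST replicates 1 to 5 (-0.88, SE 0.07, limma adjusted p 7.73e-09), with KO sham libraries at 67.0 to 93.1 CPM and 20.5% of its windows shared with other transcripts. *Fabp5* fell by 0.19 (SE 0.06, limma adjusted p 0.0187) and failed without sham replicate 4 (-0.16). *Fabp7*, the astrocyte form, was at 10.2 to 14.7 CPM in sham and at 12.7 to 18.0 CPM in MEST libraries (0.17, SE 0.11, limma adjusted p 0.261), and at no more than 0.197 CPM in any KO library, as the genotype labels give it.

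Markers of other cell types moved in both directions, beside 12.3% of all genes in each. Oligodendrocyte markers rose in 2 of 16 and fell in 2, microglia markers rose in 2 of 15 and fell in 3, and endothelial markers rose in 3 of 14 and fell in 0. *Cldn5*, of the tight junctions of brain endothelium, was at 24.8 to 28.7 CPM in sham and at 29.5 to 40.9 CPM in MEST libraries (0.33, SE 0.08, limma adjusted p 0.00555; 0.0565 in the fit of all 19 libraries). Choroid plexus and ependymal markers rose or fell in 0 of 14, with summed levels of 944 to 1560 CPM in sham and 1170 to 2000 CPM in MEST libraries. Excitatory neuron markers fell in 4 of 15 and rose in 1, with summed levels of 6530 to 7430 CPM in sham and 6160 to 6570 CPM in MEST libraries. *Neurod6*, a transcription factor of pyramidal cells, fell by 0.43 (SE 0.09, limma adjusted p 0.00147). Inhibitory neuron markers rose in 3 of 15 and fell in 2, and their summed level did not overlap (1460 to 1600 CPM in sham, 1620 to 1730 CPM in MEST libraries, 1660 to 1740 CPM in KO sham). *Pvalb*, the calcium buffer of fast-spiking interneurons, rose by 0.29 (SE 0.06, limma adjusted p 0.00087). The inhibitory markers *Sst* (0.05, limma adjusted p 0.71) and *Vip* (0.21, adjusted p 0.118) did not pass. Log2 fold changes of that list ran from -0.41 to 0.29. The part of these markers in the neuronal values above was not tested.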

How the data were processed

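RNA-seq was read from 19 mice, 1 library per mouse. The authors used bcl2fastq, Trimmomatic 0.39, HISAT2 2.2.1 (genome mm10), featureCounts of Subread 2.0.3 and DESeq2 1.36.0, per the submitters' processing notes. Libraries were stranded poly(A) libraries, and the strand and multimapping settings of the counting are not given in the sources used here. The deposited signal of each gene and library is the read count that the authors divided by 1 DESeq2 size factor per library, in 1 table for WT and another for KO mice. The tables also hold the authors' log2 fold changes and p-values, which were not used. No column of per-sample values was left without a sample. Symbols that had become dates (27 of 24421) were left out, with at most 0.384% of a library.

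All deposited values were whole reads within 0.01 after division by the step of the library. Only in KO sham replicate 5 could the step not give the depth. CPM were computed from the library total times a TMM factor set over all 19 libraries. Genes with at least 0.2 CPM in at least 5 of the 10 WT libraries entered limma 3.58.1 under R 4.3.3, with a robust empirical Bayes fit and an intensity trend on log2(CPM + 0.1). The threshold was 0.05 on p-values adjusted by Benjamini and Hochberg. The KO effect, its difference from the WT effect and KO sham over WT sham came from a fit of 4 group means (0.2 CPM in at least 4 libraries). The WT fit was tested on simulated data, and the fit of 4 group means was not. Symbols were placed in GENCODE vM21 (98.5%). Alternatives were edgeR 4.0.16 and DESeq2 1.42.0 on the recovered reads, other size factors, pseudocounts of 0.5 and 1 CPM, no filter or 1 CPM, the 4-group fit, a replicate block, removal of a loess trend (span 0.5) on exonic length, reads thinned to the smallest library, and each library left out in turn.

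Named genes are the 12 largest increases and decreases with a mean of at least 2 CPM and groups that do not overlap, up to 4 members per list and direction by p, all tested AP-1, Egr, Nr4a and Npas4 factors and fatty acid binding proteins, *Arc*, *Bdnf*, *Homer1* and *Nptx2*, and defining cell type markers. A selection of these is described, and some are not reported here. The 43 lists and the members were chosen with earlier results of these data known. The p-values measure the spread between mice within a group. Python 3.11.15, numpy 2.4.6, pandas 2.3.3 and matplotlib 3.10.9 were used.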

Additional observations from a re-analysis of the deposited data

Results flagged for a closer look

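Single libraries stood apart from the other 4 of their group in 14 of 192 groups of 5 libraries checked, where chance alone marks about 5%. The gap to the nearest library, divided by the range of the group, was above 0.71 in each. In WT MEST the library apart was the highest for *Nptx2* (113 CPM, next 52.7), *Col27a1* (8.92, next 5.43), *Fabp5* (102, next 89.5) and *Ndufs6* (56.5, next 52.2), and the lowest for *Plk3* (8.15, next 10.5), *Grin2a* (22.7, next 28.5), *Grik1* (14.4, next 17.1), *Col1a1* (7.86, next 10.3), *Rps27l* (7.44, next 8.81) and *Svop* (156, next 184). In WT sham it was the lowest for *Plk3* (13.3, next 15.9), *Per1* (67.1, next 87.5) and *Fabp7* (10.2, next 13.5), and the highest for *Grin1* (348).

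The effect of MEST over sham, with shock and age together, differed between KO and WT mice in 51 of the 96 genes with values in the text, beside 18.6% of all genes. The limma test was of the KO minus WT difference, given here as log2 values (adjusted p from 2.23e-08 to 0.0458). The KO effect was above the WT effect in the IEGs *Npas4* (2.07), *Egr1* (1.40), *Klf6* (0.48), *Ctgf* (0.62), *Plk3* (0.87) and *Dusp5* (0.67), in the collagens *Col24a1* (2.30), *Col11a2* (1.25) and *Col27a1* (1.83) and in the RNA processing genes *Srsf5* (1.43), *Srrm1* (0.87), *Hnrnpa2b1* (0.81) and *Neat1* (1.16). It was also above it in *Rgs4* (0.40), *Grin1* (0.53), *Kcna4* (0.30), *Per1* (0.65), *Hspa8* (0.46), *Hsp90aa1* (0.29), *Bhlhe40* (0.48), *Arntl* (0.35), *Ndufa1* (0.73), *Ndufs6* (0.57), *Gapdh* (1.07), *Hk1* (0.50), *Mrps5* (0.82), *Scamp3* (1.74), *Fabp3* (0.88), *Neurod6* (0.63) and *Wfs1* (0.60). Below the WT effect were the mitochondrial and ribosomal genes *Atp5e* (-1.67), *Cox5a* (-1.33), *Ndufa2* (-1.18), *Uqcrfs1* (-0.83), *Rps14* (-1.23), *Rps19* (-0.84), *Mrps24* (-1.03), *Slirp* (-1.44) and *Rps27l* (-1.62), and *Cck* (-0.60), *Gabrg1* (-0.56), *Mt3* (-0.76), *Hilpda* (-0.92), *Tef* (-0.34), *Cry1* (-0.34) and *Pvalb* (-0.66). The same held for *Srsf2* (-0.37), *Glrx3* (-1.84), *Gng13* (-1.39) and *Mir703* (-4.94), and for *Fabp7* (-0.83). KO libraries hold at most 0.197 CPM of *Fabp7*, so its value rests on the pseudocount and is no measure of a MEST over sham effect. *Mir703* is near 0 in WT sham and passed the WT filter through the MEST libraries alone. Its value therefore also rests on the pseudocount and is no measure of a difference of effects. Most of the 96 genes were named for their change in WT mice, which favours a difference. Since WT sham libraries stood apart from the other 14, a difference in these genes can come from the WT sham level as well as from either shocked group, and these cannot be told apart.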

How the results depend on the processing

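Across 23 other settings the counts of 1985 higher and 1972 lower genes stayed within 1.5 times, with 2176 and 2093 by DESeq2, 2110 and 1826 by edgeR and 2217 and 1767 after the length trend was removed. Leaving out 1 library gave 1647 to 1914 higher and 1619 to 1943 lower genes. Same-numbered MEST and sham mice showed little shared deviation (correlations -0.063 to 0.045), which cannot exclude that the numbers pair mice. The replicate block gave 1725 higher and 1751 lower genes. Genes over 2-fold depended on the handling of low levels by construction. The 35 higher became 11 and 6 at pseudocounts of 0.5 and 1 CPM and 16 with a filter at 1 CPM, and the 57 lower became 20, 17 and 28. For the difference of the effects, 1602 higher and 1485 lower genes became 1361 to 1845 and 1265 to 1638 without 1 library. DESeq2, edgeR and the thinned reads were not run for the difference, since KO sham replicate 5 has no recovered depth. Of 96 genes with values in the text, 81 kept direction and call under all settings. The call was lost by *Nr4a1* (adjusted p 0.0584) and *Per1* under the block, by *Fosb* with edgeR, by *Jun* under the block, by *Fosl2* with column totals, with no filter and with the length trend removed, by *Fabp5* under the block with the length trend removed, and by *Jun*, *Fosl2*, *Grin2a*, *Gfap*, *Serpina3n*, *Fabp5* and *Cldn5* in the 4-group fit, in which the KO libraries also set the spread. *Nptx2* gained it in the 4-group fit and with DESeq2, *Egr3* under the block, *Egr4* without a filter, and *Bdnf* under the block, with edgeR, with DESeq2, with thinned reads and with the length trend removed. *Homer1*, near 0, changed sign with median-of-ratios factors (2.759e-05), thinned reads (0.00602) and the length trend removed with and without the block (0.0131), and without 1 library it ran from -0.0526 to 0.0463; the cause was not tested. Depth limits genes under about 1 CPM, and 57 of the 92 changes over 2-fold lay under 2 CPM.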

Other observations

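At the locus of *Mir703*, chosen after its values were seen, reads were nearly absent from WT sham libraries and present in all others. Sham replicates 1 to 5 held 0.368, 0.155, 0, 0 and 0.0338 CPM, MEST replicates 1 to 5 held 3.52, 2.99, 3.03, 4.24 and 4.77 CPM, and KO sham libraries held 3.08 to 5.82 CPM. The gene passed the filter through the MEST libraries alone, so no WT fold change or test is given. The KO minus WT difference printed above (-4.94) rests on the pseudocount and is no measure of a difference of effects. *Mir703* is still counted among the 51 genes with a difference of effects and the 81 that kept their call, to which it adds no support. A poly(A) library measures the transcript that crosses the locus and not the mature miRNA.

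By biotype, 1943 of 15060 protein-coding genes were higher and 1856 lower (12.9% and 12.3%). Noncoding classes leaned the other way, with 8 higher and 33 lower of 258 lincRNAs (3.10% and 12.8%) and 9 higher and 23 lower of 230 antisense transcripts (3.91% and 10.0%). Genes with at least 50% of their windows shared with other transcripts (267) were higher in 15.7% and lower in 14.2%, against 12.3% and 11.7% of the 13730 genes with 0 shared windows.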
